A study of Mus musculus with 11 samples.

Results

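The 10 genes described here encode mitophagy receptors and the machinery that fuses and divides mitochondria in mouse heart: Bnip3, Bnip3l, Fundc1, Pink1, Mfn1, Mfn2, Opa1, Dnm1l, Fis1 and Mff. They were chosen by gene symbol from a deposited table of 54532 genes. No value entered that rule, but earlier results of these data were known when the genes were chosen. All 10 had a row, and all 10 passed the filter on low counts, together with 14862 genes in all. Their counts ran from 293 for Fundc1 to 14726 for Mfn2 in a single library. Counting error was not set apart from the spread between libraries.

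RNA of heart tissue from C57BL/6 mice, all with a labelled time of 26 weeks, was sequenced after depletion of ribosomal RNA. The METTL3 group held 4 libraries labelled HFD+STZ+AAV METTL3, and the titles do not spell out what the virus carried. METTL3 is the catalytic subunit of the enzyme that methylates adenosines in messenger RNA. The HFD+STZ group held 4 libraries, and the chow group 3. The labels do not spell HFD and STZ out; the series is on diabetic cardiomyopathy, where these letters are in common use for high-fat feeding and for streptozotocin, which kills pancreatic beta cells. The labels give neither sex nor the virus's promoter and serotype, and they do not say whether HFD+STZ or chow mice received a control virus.

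Mettl3 itself averaged 8.39 ± 2.19 CPM in METTL3 libraries and 6.35 ± 1.58 CPM in HFD+STZ libraries (SD, n = 4 each), with a log2 fold change of 0.40 and a 95% interval of -0.30 to 1.09. A rise of Mettl3 was therefore not detectable, and every direction given for that group rests on its label. CPM gives a gene's read count relative to its library's total, after TMM scaling. Libraries held 13900531 to 16952639 counts. The mitochondrial genome took 37.7% to 45.5% of counts in METTL3 libraries, 28.6% to 32.5% in HFD+STZ libraries and 9.28% to 27.4% in chow libraries. Chow replicate 3 gave the lowest of these shares and stood apart from the other chow libraries. It had counts in 15734 genes, against 20769 in chow replicate 1 and 20672 in chow replicate 2. The 6 cardiomyocyte markers were present in every library. They summed to 29210 to 34080 CPM in METTL3, 27970 to 40490 CPM in HFD+STZ and 33790 to 39100 CPM in chow libraries. Their log2 fold changes for METTL3 against chow ran in both directions, from -0.78 for Myl2 to 0.60 for Actc1. The 3 atrial markers summed to 1.43 to 98.9 CPM. The titles name the tissue only as heart, and how much atrium each sample held was not tested. The 4 macrophage markers summed to 31.9 to 64.9 CPM in METTL3, 69.3 to 126.5 CPM in HFD+STZ and 123 to 236 CPM in chow libraries, with single-gene log2 fold changes of -1.09 to -2.57 for METTL3 against chow. The 3 endothelial markers summed to 799 to 1016 CPM in METTL3, 607 to 933 CPM in HFD+STZ and 546 to 774 CPM in chow libraries, with log2 fold changes of 0.30 to 0.56 for METTL3 against chow. The 3 markers of mural cells summed to 1241 to 1620 CPM in METTL3, 815 to 1249 CPM in HFD+STZ and 768 to 1069 CPM in chow libraries, a gap carried by Rgs5 (log2 fold change 0.64 for METTL3 against chow), with Myh11 at -0.08 and Pdgfrb at -0.09. Fibroblast markers overlapped, at 915 to 1328 CPM in METTL3, 665 to 1391 CPM in HFD+STZ and 956 to 1158 CPM in chow libraries. The part of these shifts in the results below was not tested. In whole tissue, fewer cells of a type and less RNA per cell cannot be told apart.

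Mitochondria form a network that is remodelled by fusion and fission, and damaged pieces are removed by a selective form of autophagy called mitophagy. Receptors in the outer membrane, such as BNIP3, BNIP3L and FUNDC1, bind the autophagy machinery directly, while the kinase PINK1 builds up on damaged mitochondria and marks them for removal by phosphorylating ubiquitin. The heart, which draws most of its energy from mitochondria, depends on both arms, and loss of the fusion or fission proteins from mouse cardiomyocytes causes heart failure.

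The series sets METTL3 hearts against HFD+STZ hearts, and both can be set against the chow hearts. By their labels, METTL3 and chow hearts differ both in HFD+STZ and in the virus, which their comparison cannot tell apart. Against chow, 3 of the 10 genes rose in METTL3 libraries. These were the mitophagy receptor gene Bnip3, 2.27-fold, and the fission genes Mff, 1.78-fold, and Dnm1l, 1.54-fold. None fell. Over all genes tested, edgeR's quasi-likelihood test called 3.2% in this comparison at a Benjamini-Hochberg adjusted p below 0.05, and 1.82% as higher. Of the 10 genes, 5 had an unadjusted p below 0.05, where the share over all genes was 21.7%, and the groups did not overlap in 5, where that share was 18.7%. The DESeq2 Wald test called 5 of the 10 genes, adding Bnip3l and Fundc1, and limma voom with quality weights called the same 5. Those tools called 10.2% and 20.7% of all genes.

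Between HFD+STZ and chow, edgeR's adjusted p passed the threshold for 0 of the 10 genes and for 0.168% of all genes. At an unadjusted p below 0.05 stood 2 of the 10, Bnip3 and Mff, against 12.1% of all genes, and the groups did not overlap in Bnip3, Bnip3l and Mff, against 10.4%. DESeq2 called 1 of the 10, Bnip3, and 2.14% of all genes. Limma voom called 3, Bnip3, Mfn1 and Opa1, and 13.1% of all genes. Between METTL3 and HFD+STZ, edgeR called 0 of the 10 and 0% of all genes. An unadjusted p below 0.05 was found for 3 of the 10, Dnm1l, Fundc1 and Mff, against 9.06% of all genes, and the groups did not overlap in Dnm1l, Mff and Bnip3l, against 9.57%. DESeq2 and limma voom each called 1 of the 10, Dnm1l, beside 1.11% and 2.66% of all genes. The comparisons share libraries, so they do not stand as independent results.

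**Figure D1:**
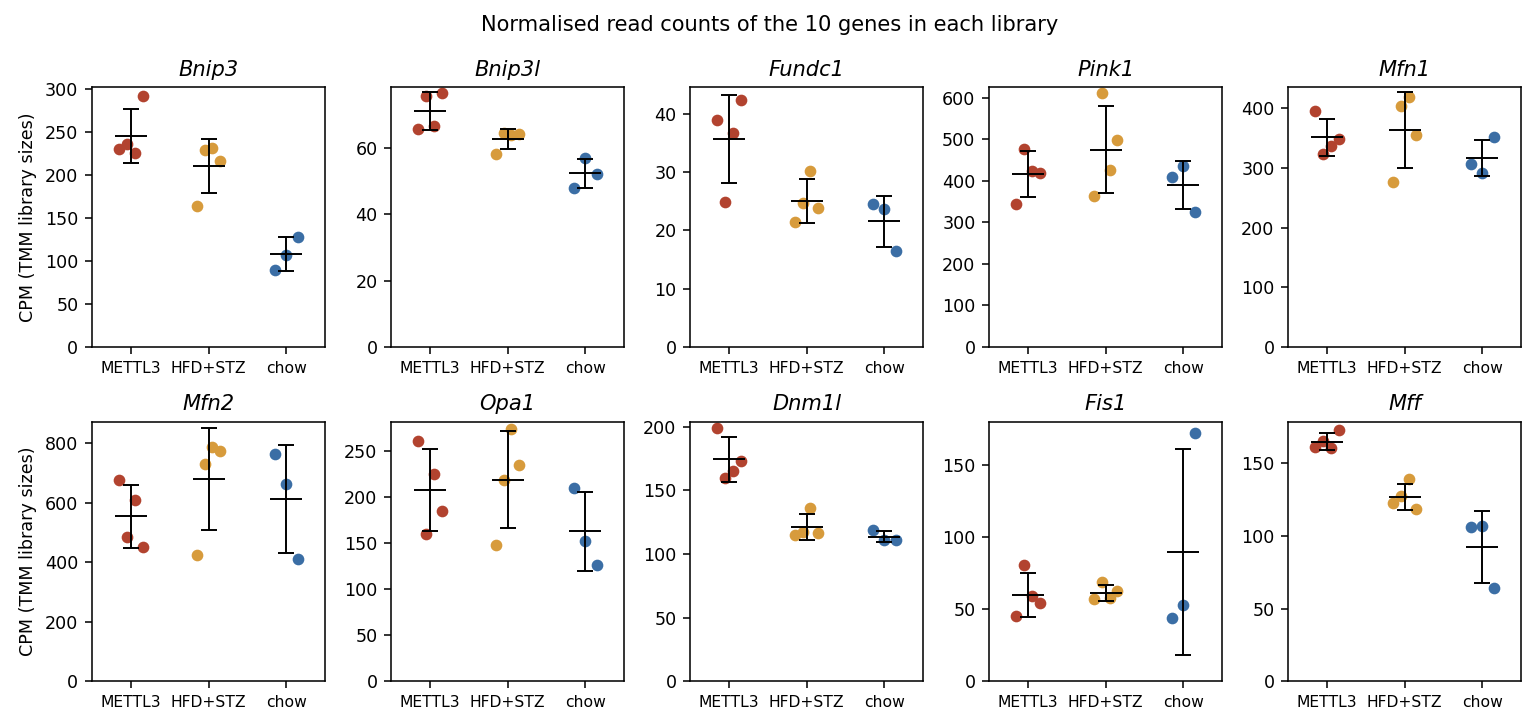
Normalised read counts (CPM, vertical axes starting at 0) of the 10 genes in each library of the METTL3 (n = 4), HFD+STZ (n = 4) and chow (n = 3) groups; points are libraries, and bars are the mean and SD. Bnip3 lies at 225 to 292 CPM in METTL3, 164 to 231 CPM in HFD+STZ and 89.1 to 128 CPM in chow libraries, and 1 chow library stands far above all others for Fis1.

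Bnip3 encodes a receptor of the outer mitochondrial membrane that binds autophagy proteins and is known as a gene induced by low oxygen (ENSMUSG00000078566, chromosome 7, 138890836 to 138909519, minus strand, mm10 coordinates as deposited). Its level was 229.6, 236, 225 and 292 CPM in METTL3 libraries, 164, 229, 231 and 216 CPM in HFD+STZ libraries, and 89.1, 107 and 128 CPM in chow libraries. All 8 METTL3 and HFD+STZ libraries therefore lay above all 3 chow libraries, while METTL3 and HFD+STZ libraries overlapped each other. The mean was 246 ± 31.1 CPM in METTL3 (SD, n = 4), 210.1 ± 31.5 CPM in HFD+STZ (SD, n = 4) and 108 ± 19.5 CPM in chow hearts (SD, n = 3).

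For METTL3 against chow the log2 fold change of Bnip3 was 1.19 (SE 0.20, 95% interval 0.76 to 1.61, edgeR Benjamini-Hochberg adjusted p = 0.016). For HFD+STZ against chow it was 0.96 (SE 0.20, interval 0.54 to 1.38), and the edgeR adjusted p of 0.0697 missed the threshold. This second value passed without HFD+STZ replicate 1 (log2 fold change 1.06, adjusted p = 0.0193) and without chow replicate 3 (1.11, adjusted p = 0.0187). It moved further from the threshold without HFD+STZ replicate 2, 3 or 4 (edgeR adjusted p = 0.251, 0.24 and 0.192). Of 24 alternative fits, 8 called it. The call against chow in METTL3 libraries was lost without METTL3 replicate 4 (log2 fold change 1.09, edgeR adjusted p = 0.0582) and without chow replicate 2 (1.18, adjusted p = 0.0662). METTL3 set against HFD+STZ gave a log2 fold change of 0.22 (SE 0.18), and its interval of -0.16 to 0.61 leaves out a change of 2-fold in either direction. Sample codes in the labels run either between 25 and 33 or between 78 and 98, and whether this marks a batch is not stated. Among the higher codes METTL3 replicate 4 had 292 CPM, HFD+STZ replicate 1 had 164 CPM and the 3 chow libraries 89.1 to 128 CPM, too few libraries for a test within it. Once the code range entered the fit as a term, METTL3 against chow had a log2 fold change of 1.16 and an edgeR adjusted p of 0.116. HFD+STZ against chow then had a log2 fold change of 0.94 and an edgeR adjusted p of 0.664.

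The promoter of Bnip3 is shown because Bnip3 had the largest fold change of the 10 genes in both comparisons with chow (though not between METTL3 and HFD+STZ), and that of Dnm1l as a second called gene for contrast. Both are RefSeq sequences of the 250 bases before the start site on build GRCm38.p6, minus strand, at chr7:138909507-138909756 for Bnip3 and chr16:16359032-16359281 for Dnm1l. Capitals mark each ACGTG or GCGTG, the core letters of hypoxia response elements, on either strand (CACGT and CACGC).
Bnip3: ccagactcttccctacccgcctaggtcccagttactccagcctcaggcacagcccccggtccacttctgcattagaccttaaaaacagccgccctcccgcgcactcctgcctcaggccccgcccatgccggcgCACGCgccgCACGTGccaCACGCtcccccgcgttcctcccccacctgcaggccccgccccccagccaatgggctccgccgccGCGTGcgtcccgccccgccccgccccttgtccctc
Dnm1l: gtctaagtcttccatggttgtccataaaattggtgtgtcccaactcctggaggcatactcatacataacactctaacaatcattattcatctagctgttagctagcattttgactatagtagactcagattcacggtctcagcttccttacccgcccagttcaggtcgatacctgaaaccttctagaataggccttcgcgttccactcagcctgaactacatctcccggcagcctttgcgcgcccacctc
The Bnip3 window held 5 matches, of which 2 are the overlapping readings of the palindrome CACGTG, and the Dnm1l window held 0. Of 32851 promoter windows of this length, 38.6% held at least 1 match and 1.01% at least 5. Of the 10 genes, 9 matched the RefSeq promoter table by symbol, all but Bnip3l. Pink1 and Mfn2 held 1 match each, and Fundc1, Mfn1, Opa1, Fis1 and Mff held 0. Mfn2 had 3 windows, and Dnm1l, Fis1 and Mff had 2 each. For these only the window nearest the deposited start of the gene was counted. A match of letters is a description and not a binding site.

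Bnip3l, also called Nix, encodes the closest relative of BNIP3 and removes mitochondria from maturing red blood cells (ENSMUSG00000022051, chromosome 14, 66985239 to 67008877). It measured 65.8, 75.5, 66.8 and 76.6 CPM in METTL3 libraries, 58.3, 64.6, 63.9 and 64.1 CPM in HFD+STZ libraries, and 47.9, 56.8 and 52.2 CPM in chow libraries. The 3 groups did not overlap in any pairing, though the closest METTL3 and HFD+STZ libraries, at 65.8 and 64.6 CPM, lay near each other. The log2 fold change was 0.44 for METTL3 against chow (SE 0.14, interval 0.13 to 0.76, edgeR Benjamini-Hochberg adjusted p = 0.104), 0.26 for HFD+STZ against chow (SE 0.14) and 0.18 for METTL3 against HFD+STZ (SE 0.13), and no edgeR call was made. The summed level of 5 erythroid markers overlapped between the groups, at 265 to 1765 CPM in METTL3, 476 to 994 CPM in HFD+STZ and 305 to 2033 CPM in chow libraries. A pseudogene of Bnip3l, Bnip3l-ps, had 26 to 87 counts per library, against 840 to 1062 for Bnip3l, so reads shared between the copies could move this gene's value.

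The ratio of Bnip3l to Bnip3 within a library, taken per gene length and thus free of library scaling, was 0.154 to 0.188 in METTL3, 0.162 to 0.209 in HFD+STZ and 0.239 to 0.316 in chow libraries. Both METTL3 and HFD+STZ libraries lay below chow libraries, so the pair of receptor transcripts did not change in proportion.

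Fundc1 encodes the third receptor, which acts in low oxygen and is regulated by phosphorylation (ENSMUSG00000025040, chromosome X, 17556564 to 17572325). It was the least abundant of the 10 genes, at 38.9, 24.9, 36.6 and 42.3 CPM in METTL3 libraries, 21.4, 24.7, 30.2 and 23.8 CPM in HFD+STZ libraries, and 24.5, 23.6 and 16.5 CPM in chow libraries. METTL3 replicate 2 lay with the HFD+STZ libraries, and the other METTL3 libraries lay above all of them. The log2 fold change was 0.73 for METTL3 against chow (SE 0.22, edgeR adjusted p = 0.084), 0.51 for METTL3 against HFD+STZ (SE 0.20, interval 0.08 to 0.94, adjusted p = 0.485) and 0.22 for HFD+STZ against chow (SE 0.21, adjusted p = 0.681).

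Pink1 encodes the kinase that marks damaged mitochondria (ENSMUSG00000028756, chromosome 4, 138313409 to 138326307). It had 343 to 476 CPM in METTL3, 364 to 610.4 CPM in HFD+STZ and 324 to 435 CPM in chow libraries, and no pair of groups was separate. The log2 fold changes were -0.19 for METTL3 against HFD+STZ (95% interval -0.61 to 0.23), 0.28 for HFD+STZ against chow (-0.17 to 0.74) and 0.09 for METTL3 against chow (-0.36 to 0.55). None passed edgeR's test.

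Among the fusion genes, Mfn1 and Mfn2 encode the GTPases that join outer membranes, and Opa1 the dynamin that joins inner membranes and shapes cristae. Mfn2 (ENSMUSG00000029020, chromosome 4, 147873599 to 147904704) had 451 to 676 CPM in METTL3, 425 to 786 CPM in HFD+STZ and 411 to 763 CPM in chow libraries. Within HFD+STZ, replicate 1 had 425 CPM and the other 3 had 732 to 786 CPM. Within chow, replicate 3 had 411 CPM and the other 2 had 663 and 763 CPM. Mfn1 (ENSMUSG00000027668, chromosome 3, 32529465 to 32579239) ran from 323 to 395 CPM in METTL3, 277 to 419 CPM in HFD+STZ and 292 to 351 CPM in chow libraries. Opa1 (ENSMUSG00000038084, chromosome 16, 29579334 to 29654884) ran from 160 to 261 CPM, 148 to 274 CPM and 127 to 209.6 CPM in the same groups. The ranges of all 3 fusion genes overlapped in every comparison.

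The 95% intervals bound how far the fusion genes could have moved. For METTL3 against HFD+STZ they were -0.42 to 0.32 for Mfn1, -0.83 to 0.25 for Mfn2 and -0.58 to 0.43 for Opa1 on the log2 scale. For METTL3 against chow they were -0.25 to 0.55, -0.72 to 0.44 and -0.19 to 0.90. For HFD+STZ against chow they were -0.20 to 0.60, -0.44 to 0.73 and -0.12 to 0.97. These limits depend on single libraries. Without chow replicate 1, Opa1 had a log2 fold change of 0.66 (SE 0.27) for HFD+STZ against chow and 0.57 (SE 0.27) for METTL3 against chow, so that a 2-fold change lies within 2 SE of both. For HFD+STZ against chow Mfn2 had 0.35 without chow replicate 1, 0.32 without HFD+STZ replicate 1 and -0.065 without chow replicate 3. The ratio of Mfn2 to Mfn1 within a library, per gene length, was 1.52 to 2.13 in METTL3, 1.81 to 2.56 in HFD+STZ and 1.38 to 2.92 in chow libraries.

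**Figure D2:**
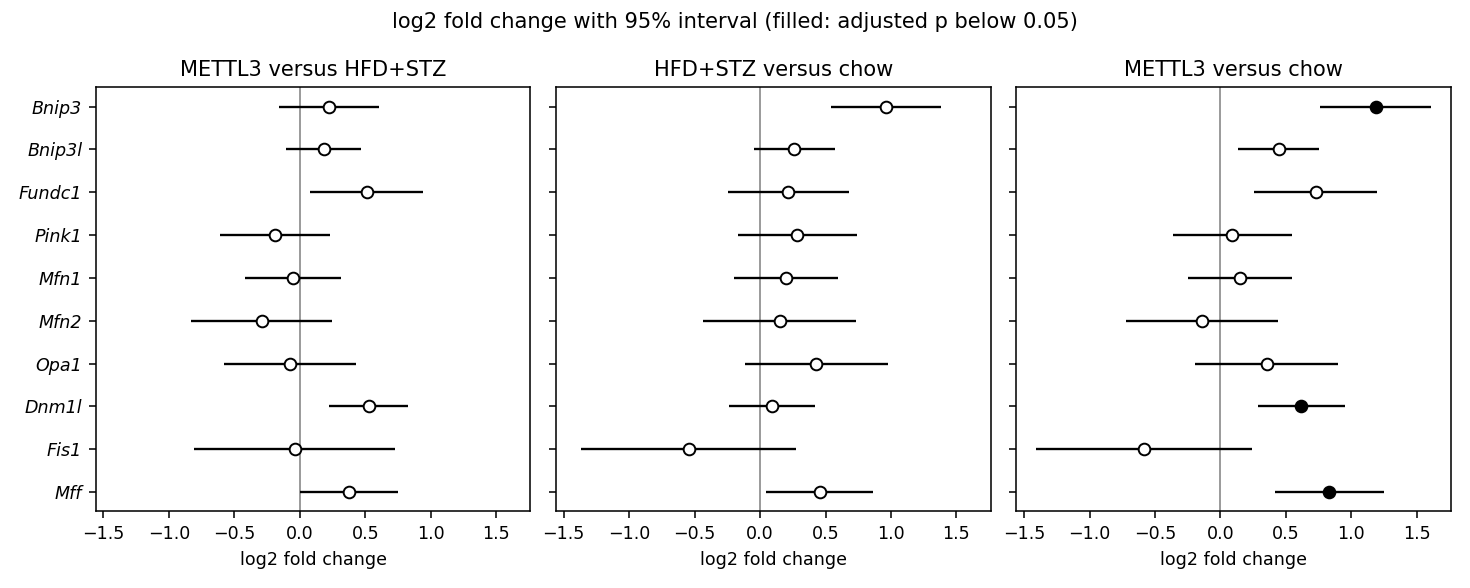
log2 fold changes of the 10 genes (points) with 95% intervals (lines) from edgeR's quasi-likelihood fit for the 3 comparisons; filled points have a Benjamini-Hochberg adjusted p below 0.05 over all genes tested. Filled points appear for Bnip3 (1.19), Mff (0.83) and Dnm1l (0.62) in METTL3 against chow, and in no other place.

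Among the fission genes, Dnm1l encodes DRP1, the cytosolic dynamin that constricts mitochondria, and Mff and Fis1 encode outer-membrane proteins that recruit it. Dnm1l (ENSMUSG00000022789, chromosome 16, 16312230 to 16358959) had 199, 159, 165 and 173 CPM in METTL3 libraries, 115, 118, 136 and 116 CPM in HFD+STZ libraries, and 119, 111 and 111 CPM in chow libraries. Every METTL3 library lay above every HFD+STZ and chow library, and HFD+STZ and chow libraries overlapped. The mean was 174 ± 17.5 CPM in METTL3 (SD, n = 4), 121 ± 9.89 CPM in HFD+STZ (SD, n = 4) and 114 ± 4.42 CPM in chow hearts (SD, n = 3). The log2 fold change was 0.62 for METTL3 against chow (SE 0.15, interval 0.29 to 0.95, edgeR Benjamini-Hochberg adjusted p = 0.0487). It was 0.53 for METTL3 against HFD+STZ (SE 0.14, interval 0.22 to 0.83, adjusted p = 0.350) and 0.09 for HFD+STZ against chow (SE 0.15, interval -0.23 to 0.42). The call against chow was kept without HFD+STZ replicate 1 or chow replicate 3 and lost without each of the other 9 libraries, with an edgeR adjusted p of 0.0607 without chow replicate 1 up to 0.123 without chow replicate 2. Of 24 alternative fits, 18 lost the call. The fold change moved most with offsets for length and GC content, to 0.21 on the log2 scale (edgeR adjusted p = 0.504), while it stayed at 0.54 to 0.61 with other scalings, mitochondrial genes removed, no filter or only the groups compared (adjusted p = 0.0525 to 0.145). Among the 6 METTL3 and HFD+STZ libraries with codes 25 to 33 alone, the log2 fold change of METTL3 against HFD+STZ was 0.50 for Dnm1l, 0.33 for Mff, 0.34 for Fundc1, 0.10 for Bnip3l and 0.02 for Bnip3, and none passed edgeR's test.

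Mff (ENSMUSG00000026150, chromosome 1, 82724890 to 82752394) had 161, 165, 160.1 and 173 CPM in METTL3 libraries, 123, 127, 139 and 118 CPM in HFD+STZ libraries, and 106, 107 and 63.9 CPM in chow libraries. The 3 groups did not overlap in any pairing, and chow replicate 3 was the lowest library. The log2 fold change was 0.83 for METTL3 against chow (SE 0.19, interval 0.42 to 1.25, edgeR Benjamini-Hochberg adjusted p = 0.0403), 0.45 for HFD+STZ against chow (SE 0.19, adjusted p = 0.375) and 0.38 for METTL3 against HFD+STZ (SE 0.17, adjusted p = 0.548). Without chow replicate 3 the first value was 0.62, with an edgeR adjusted p of 0.0266. The call was kept without HFD+STZ replicate 1 or chow replicate 1 as well, and lost without each of the other 8 libraries, with an edgeR adjusted p of 0.0574 without HFD+STZ replicate 3 up to 0.1 without METTL3 replicate 4.

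Fis1 (ENSMUSG00000019054, chromosome 5, 136953275 to 136966234) had 45.1, 80.8, 59.0 and 54.1 CPM in METTL3 libraries, 57.0, 68.8, 57.5 and 62.3 CPM in HFD+STZ libraries, and 44.2, 52.9 and 172 CPM in chow libraries. The value of 172 CPM belongs to chow replicate 3 and sets the direction of both comparisons with chow. The log2 fold change of METTL3 against chow was -0.58 (SE 0.38) with that library and 0.29 without it, and of HFD+STZ against chow -0.55 (SE 0.38) with it and 0.34 without it. None of these passed edgeR's test. METTL3 set against HFD+STZ gave a log2 fold change of -0.04 (interval -0.81 to 0.73). Fis1 was described in full because of this library, after its values were seen.

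The fission gene Dnm1l set against the fusion gene Opa1 within each library, per gene length, gave a ratio of 1.16, 1.51, 1.11 and 1.41 in METTL3 libraries, 1.17, 0.813, 0.750 and 0.750 in HFD+STZ libraries, and 0.857, 1.11 and 1.32 in chow libraries. HFD+STZ replicate 1 lay among the METTL3 libraries, and chow libraries overlapped both other groups.

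**Figure D3:**
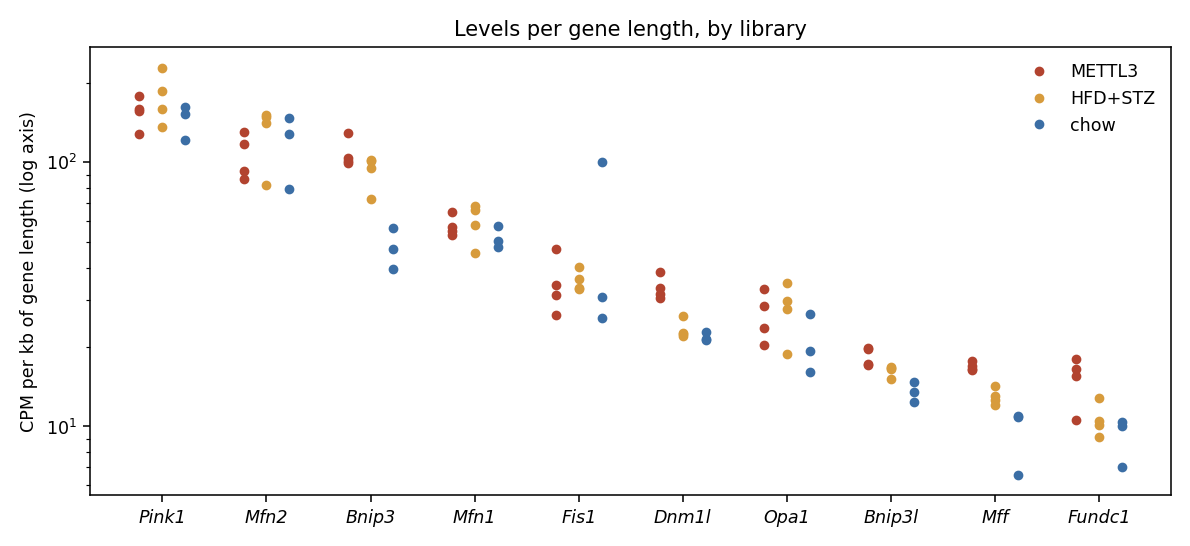
Level of each of the 10 genes per kb of deposited gene length (CPM per kb, log axis) in every library, with METTL3 left, HFD+STZ in the middle and chow right for each gene. The genes run from Pink1, with a mean of 161 CPM per kb, to Fundc1, with 11.9 CPM per kb.

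Levels per kb of deposited gene length put the genes on a common scale. How that length was defined is not given, and the order of the genes depends on it. Before division by length, Mff averaged 131 CPM and Bnip3l 63.0 CPM, the reverse of their order per kb. The mean over the 11 libraries was 161 CPM per kb for Pink1, 118 for Mfn2, 86.1 for Bnip3, 56.6 for Mfn1, 40.0 for Fis1, 26.6 for Dnm1l, 25.4 for Opa1, 16.3 for Bnip3l, 13.4 for Mff and 11.9 for Fundc1, all in CPM per kb. Within single libraries Opa1 exceeded Bnip3l, and Bnip3l exceeded Mff, in 11 of 11. Mff exceeded Fundc1 in 8 of 11, and these neighbours overlapped. Dnm1l exceeded Opa1 in 7 of 11 libraries, among them all 4 METTL3 libraries. Bnip3 exceeded Mfn1 in 8 of 11, which were all METTL3 and HFD+STZ libraries, and lay below it in all 3 chow libraries. In chow replicate 3 the genes were nearly level, at 56.6 CPM per kb for Bnip3 and 57.4 CPM per kb for Mfn1. Bnip3 averaged 108 ± 13.7 CPM per kb in METTL3 and 92.7 ± 13.9 CPM per kb in HFD+STZ libraries (SD, n = 4 each), above Mfn1 at 57.4 ± 5.12 and 59.5 ± 10.4 CPM per kb, and 47.6 ± 8.62 CPM per kb in chow libraries (SD, n = 3), where Mfn1 stood at 51.8 ± 5.03 CPM per kb.

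Fold changes in both METTL3 comparisons moved with the base composition of the transcripts. Genes tested were put into 5 classes of equal size by transcript GC content. The class with the lowest GC content (median 42.7% GC) had a median log2 fold change of 0.29 for METTL3 against HFD+STZ and 0.30 against chow. The class with the highest GC content (median 58.0% GC) had -0.23 and -0.27. For HFD+STZ against chow the same classes lay at 0.02 and -0.04. Of the 10 genes, Dnm1l (40.7% GC), Fundc1 (43.5%), Mff (44.4%) and Mfn1 (44.4%) belong to the lowest class, and Bnip3 (50.9%) to the middle one. Offsets that remove each library's trend with gene length and GC content left Bnip3 at a log2 fold change of 1.32 for METTL3 against chow (edgeR Benjamini-Hochberg adjusted p = 0.0124) and at 0.98 for HFD+STZ against chow (adjusted p = 0.0482). With the same offsets Dnm1l stood at 0.21 (adjusted p = 0.504) and Mff at 0.53 (adjusted p = 0.0992) for METTL3 against chow, and neither was called. Dnm1l had 0.21 and Mff 0.16 for METTL3 against HFD+STZ with the offsets. The offsets also take out any group difference that follows length or GC content, whatever its origin. The cause of the trend was not tested.

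**Figure D4:**
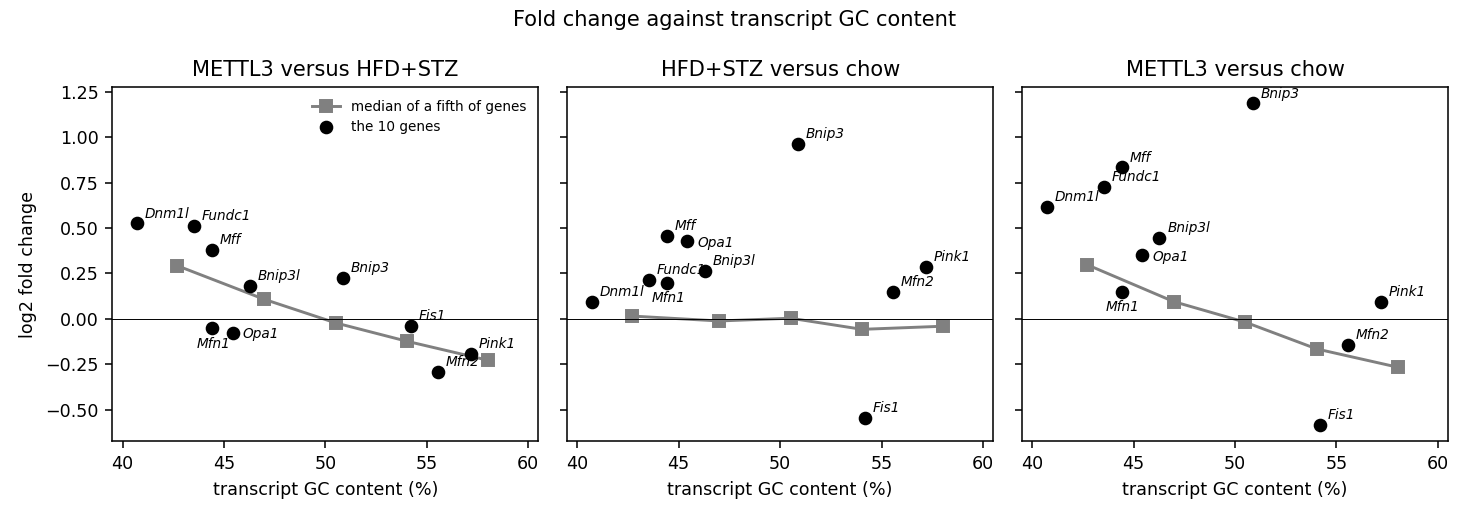
log2 fold change (vertical axis) against transcript GC content in percent (horizontal axis) in the 3 comparisons, with the 10 genes as black points and the median of each of 5 GC classes of all genes tested as grey squares. The grey medians run from 0.29 to -0.23 for METTL3 against HFD+STZ and stay between -0.06 and 0.02 for HFD+STZ against chow; Bnip3 lies well above them in both comparisons with chow.

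**Figure D5:**
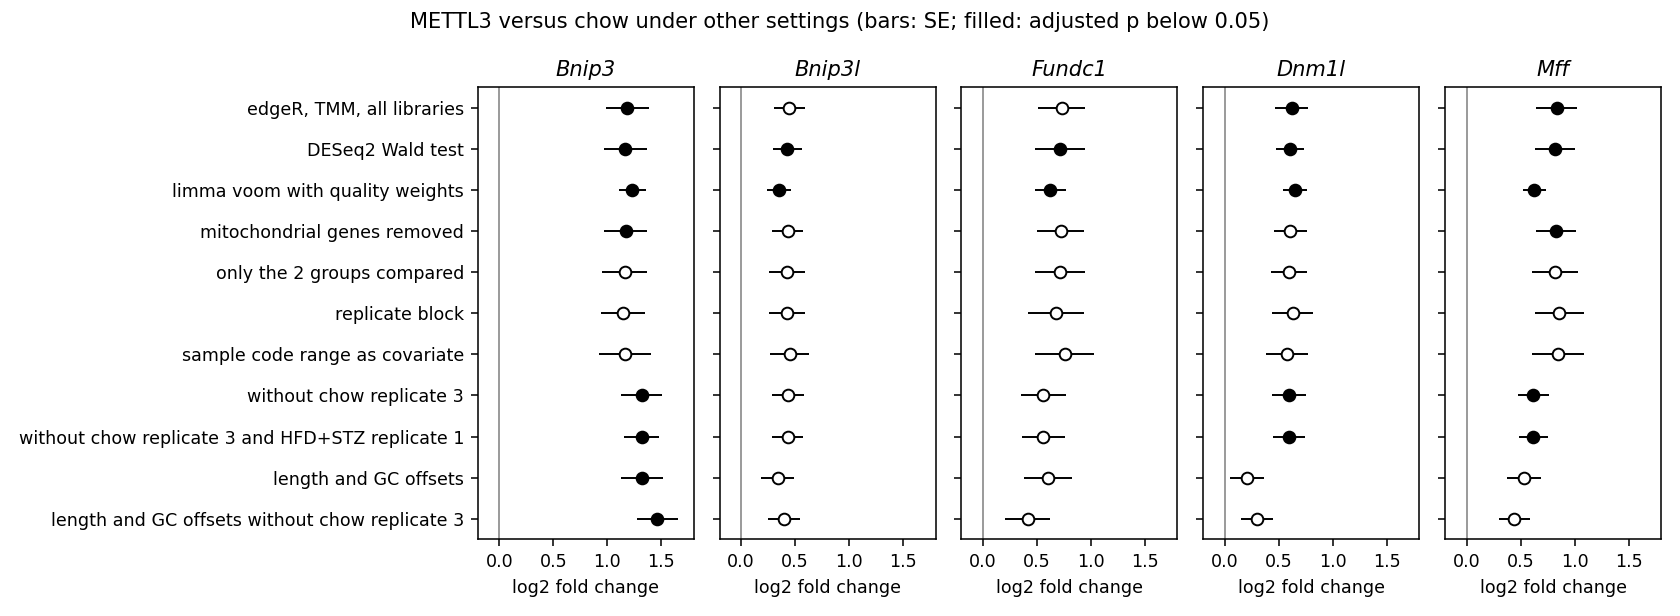
log2 fold change of METTL3 against chow (horizontal axes) with its SE (bars) for the 5 genes with an unadjusted p below 0.05, under the settings named at the left; filled points have an adjusted p below 0.05. Bnip3 stays between 1.15 and 1.46 in the settings drawn, while Dnm1l lies at 0.21 and 0.30 with the length and GC offsets.

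A wider list of 55 genes held 29 further genes of mitophagy and 26 of mitochondrial dynamics, of which 52 were tested. In METTL3 against chow, edgeR called 1 of these 52, higher, where it called 3.2% of all genes, and the median log2 fold change was 0.13, beside -0.01 over all genes tested. That gene was Slc25a46, which encodes an outer-membrane carrier-like protein that interacts with the fusion machinery and the cristae-organising complex. It averaged 111 ± 16.7 CPM in METTL3 (SD, n = 4) and 65.9 ± 6.51 CPM in chow hearts (SD, n = 3), with a log2 fold change of 0.76 (SE 0.18, edgeR adjusted p = 0.0453). It had 0.51 with the length and GC offsets, with an adjusted p of 0.180. The call was kept without HFD+STZ replicate 1 or chow replicate 3 and lost without each of the other 9 libraries, with an edgeR adjusted p of 0.0568 without HFD+STZ replicate 3 up to 0.121 without chow replicate 2. The next smallest p belonged to Inf2 (log2 fold change 0.83), a formin that drives fission from the endoplasmic reticulum, to Rhot1 (0.68), which anchors mitochondria to motors, and to Fkbp8 (-0.52), a mitophagy receptor. Their edgeR adjusted p were 0.0724, 0.0845 and 0.0971. DESeq2 called 5 of the 52 in this comparison, beside 10.2% of all genes, and limma voom 12, beside 20.7%. These counts lie near the shares over all genes.

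In HFD+STZ against chow edgeR called 0 of the 52, beside 0.168% of all genes, with 3 at an unadjusted p below 0.05, beside 12.1%. DESeq2 called 0, beside 2.14%, and limma voom 10, beside 13.1%. The median log2 fold change was 0.21, beside -0.02 over all genes tested. Among the smallest p were those of Inf2 (log2 fold change 0.75, SE 0.24), Nipsnap2 (0.71, SE 0.29), a matrix protein that can recruit autophagy receptors, and Vdac1 (0.59, SE 0.28), the outer-membrane channel. Their edgeR adjusted p ran from 0.267 to 0.420. In METTL3 against HFD+STZ edgeR, DESeq2 and limma voom each called 0 of the 52, and 6 had an unadjusted p below 0.05 in edgeR, where 9.06% of all genes had one. The smallest p were those of Miga1 (0.47), Apool (0.51), Slc25a46 (0.43) and Fkbp8 (-0.36), with edgeR adjusted p of 0.405, 0.465, 0.485 and 0.529. The first of these encodes a regulator of fusion and the second a subunit of the cristae-organising complex.

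The genes whose profiles lay closest to those of the 5 genes with a small p were found by the root mean square difference of log2 CPM, each gene centred on its mean over the 11 libraries. For Bnip3 the closest of 9762 genes were Ech1 (0.13), which serves fatty acid oxidation, Cyp4b1 (0.17) and Fam117b (0.19), where the median over all genes was 0.61. For Bnip3l they were Rxrg (0.07), Oxa1l (0.07) and Ecpas (0.09), for Fundc1 Mkln1 (0.13), Eif5 (0.15) and Wac (0.15), for Dnm1l Naa15 (0.06), Selenot (0.08) and Azi2 (0.09), and for Mff Ms4a4d (0.08), Tpp2 (0.08) and Ifngr1 (0.09). The medians over all genes were 0.38 for Bnip3l, 0.49 for Fundc1, 0.44 for Dnm1l and 0.485 for Mff. Distances are smaller for genes that vary less, and the SD over the 11 libraries was 0.525 for Bnip3 but 0.196 for Bnip3l.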

How the data were processed

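The authors deposited raw counts per gene for 11 libraries of heart, with the gene length in bases. Per the submitters' processing notes FastQC, Salmon and build mm10 were used. Tool versions, annotation release, strandedness and how shared reads were counted: not given in the sources used here. Exons of Bnip3, Dnm1l and Mff overlap antisense or opposite-strand genes in GENCODE M21, which had 0 to 8 counts. Groups and replicate numbers come from titles. Nothing says that replicates were separate animals, so the p-values reflect only how much these libraries vary, which may be technical. Libraries held 13900531 to 16952639 counts.

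The edgeR package 4.0.16 (R 4.3.3) was applied to the deposited counts (TMM scaling, filterByExpr with a minimum count of 10 and total of 15, group means of all 11 libraries, quasi-likelihood test, Benjamini-Hochberg adjustment over 14862 genes). The procedure was first tested on simulated data. DESeq2 1.42.0 and limma 3.58.1 voom were alternatives, with other scalings and filters, fewer groups, a replicate block, the code range as covariate, left-out libraries and the offsets. GC content is the mean over GENCODE M21 transcripts, available for 99.9% of tested genes, and the offsets use loess with a span of 0.5. The genes, the wider list and the alternatives were chosen with earlier results of these data known. Genes with an unadjusted p below 0.05 in any comparison are given in full. From the wider list those past the threshold or the 4 smallest p are named, except an item that is not reported here, and neighbours are the 3 closest profiles with at least 5 CPM and no predicted symbol.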

Additional observations from a re-analysis of the deposited data

Results flagged for a closer look

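In groups of 4 libraries, 20 were examined for a library far from the rest, and chance flags about 1 in 20. Bnip3 was 292 CPM in METTL3 replicate 4, against 225 to 236 CPM in the other METTL3 libraries. Bnip3l was 58.3 CPM in HFD+STZ replicate 1, against 63.9 to 64.6 CPM in the other HFD+STZ libraries. Mfn2 was 425 CPM in HFD+STZ replicate 1, against 732 to 786 CPM in the others. Dnm1l was 136 CPM in HFD+STZ replicate 3, against 115 to 118 CPM in the others.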

How the results depend on the processing

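Bnip3 kept its direction in every alternative fit of all 3 comparisons. No scaling moved the median of all genes by over 0.1 on the log2 scale. For METTL3 against HFD+STZ, genes called numbered 129 with DESeq2, 395 with limma voom and 403 without chow replicate 3 and HFD+STZ replicate 1, where edgeR otherwise gave 0; of the 10 genes DESeq2 and limma voom called 1 each. For HFD+STZ against chow, against 25 genes, the counts were 305 with DESeq2, 1954 with limma voom, 190 with no filter, 43 with a stricter one, 0 with only the groups compared (1369 at an unadjusted edgeR p below 0.05), 1 with the code range as covariate, 493 without both libraries, 57 with length and GC offsets and 89 with these and without chow replicate 3, an alternative chosen after seeing the data. Of the 10 genes, 1 was called with DESeq2, no filter, without both libraries and with either offset fit, and 3 with limma voom. For METTL3 against chow, against 475 genes, they were 1509 with DESeq2, 3078 with limma voom, 747 with no filter, 54 with only the groups compared, 1 with the code range, 1258 without both libraries and 201 with offsets; of the 10 genes, DESeq2 and limma voom called 5, the offset fits 1, and the groups compared alone or the code range 0. Leaving out 1 library gave 1 to 215 genes for HFD+STZ against chow and 34 to 750 for METTL3 against chow, with 0 to 1 and 0 to 3 of the 10 genes.

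Same-numbered libraries deviated together by correlations of -0.23 to 0.16, over 0.1 in 2 of 10 pairs. Differently numbered libraries gave -0.19 to 0.22, so no sign of pairing was seen. These correlations cannot rule pairing out, since single libraries far from their group weigh on them, and the labels do not state it. With a replicate block, 0, 2 and 5 genes were called for METTL3 against HFD+STZ, HFD+STZ against chow and METTL3 against chow, and 0 of the 10 genes in each.

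Values that turned in sign, none called, were these log2 fold changes. For METTL3 against HFD+STZ, Pink1 was 0.076 and Fis1 0.171 with offsets, and 0.075 and 0.169 with offsets without chow replicate 3. For HFD+STZ against chow, Fis1 was 0.27 with limma voom, 0.37 without both libraries and 0.36 with offsets without chow replicate 3, Mfn2 was -0.34 with the code range and Dnm1l -0.005 with offsets. For METTL3 against chow, Pink1 was -0.088 with limma voom, -0.074 with the code range and -0.032 without both libraries. Fis1 was 0.10 with limma voom, 0.291 without both libraries and 0.53 with offsets without chow replicate 3. Mfn1 was -0.033 with the code range and -0.12 with offsets, and Mfn2 0.01 with offsets. When single libraries were left out, METTL3 against HFD+STZ gave -0.219 to 0.075 for Fis1, -0.23 to 0.051 for Opa1 and -0.17 to 0.023 for Mfn1. HFD+STZ against chow gave -0.065 to 0.346 for Mfn2 and -0.85 to 0.34 for Fis1. METTL3 against chow gave -0.371 to 0.039 for Mfn2, -0.034 to 0.185 for Pink1 and -0.91 to 0.29 for Fis1. The causes were not tested.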

Other observations

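Together the 10 genes made up 0.323% to 0.347% of nuclear counts in METTL3 libraries, 0.287% to 0.356% in HFD+STZ libraries and 0.240% to 0.342% in chow libraries. HFD+STZ replicate 1 and chow replicate 3 were the lowest of their groups.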
